A study of Mus musculus with 10 samples.

Results

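The 10 genes described here, Cldnd2, Rcn3, Dkkl1, Slc6a16, Gys1, Dhdh, Sult2b1, Ptpn5, Fan1 and Ddias, all lie on mouse chromosome 7, the chromosome that carries Klf13. They were picked from their measured change in T cells of Klf13 knockout mice, out of 19048 genes measured in both deposited tables. The difference between knockout and wild type is therefore given for them as a description. Where a limma outcome is named for one of them, it describes the same values and is not read as a test result. All 10 were among the 12485 genes tested, whose mean over the arrays of both genotypes was at or above the 30th percentile in each table. Slc6a16 (both tables) and Sult2b1 (exon-level table) were below the 30th percentile in the wild-type arrays alone, so they entered the test through the knockout arrays in which they were high. In fitted knockout minus wild-type difference 3 of the genes were higher in the knockout (Slc6a16, Dhdh and Sult2b1), and 7 were lower (Rcn3, Dkkl1, Cldnd2, Fan1, Gys1, Ddias and Ptpn5).

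RNA came from CD3+ T cells of the spleen of male Balb/C mice 12 weeks old, stimulated for 4 days through CD3, by antibody fixed to the plate, and through CD28, by antibody in solution. This treatment activates T cells. In the labels the 5 wild-type arrays (WT1 to WT5) and the 5 KLF13 KO arrays (KO1 to KO5) carry the same replicate numbers. The labels do not say how the knockout allele was made, in which strain, or how often it was crossed to Balb/C. CD3+ cells hold several kinds of T cell, and in such a bulk sample fewer cells of a type and less RNA per cell cannot be told apart.

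KLF13 is a zinc-finger transcription factor of the Krüppel-like family, which binds GC-rich and CACCC sequences and is known in T cells as a regulator of Ccl5, a chemokine gene switched on late after activation. As general background, a gene altered in embryonic stem cells of one mouse strain and crossed into another brings neighbouring DNA of the first strain with it. Genes linked to the altered locus can then differ between knockout and control animals through strain variants, and array probes can lose signal where a variant lies under them. For these mice, DNA carried along with the altered allele and the loss of KLF13 itself cannot be told apart with the data used here.

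The arrays formed 3 replicate sets, since 2 tables had been normalized separately and the exon-level table held 2 ranges of signal. Set A was WT1 and KO1 of the exon-level table, with array medians of 5.21 and 5.23 on the log2 scale. Set B was WT2, WT3, KO2 and KO3 of the same table, with medians between 6.25 and 6.43. Set C was WT4, WT5, KO4 and KO5 of a gene-level table, with medians between 4.18 and 4.30. Differences were taken within a set, and the fitted difference joins the 3 sets with set as a block. The signals of KO3 were less spread out, with the middle of the distribution spanning 3.10 (interquartile range), while WT1 to WT3, KO1 and KO2 spanned 3.43 to 3.56.

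By the order of genes in the RefSeq annotation of GRCm38.p6, only Fan1 stood within a few genes of Klf13. Counts of genes are not distances in bases. The upstream stretches begin at base 43440566 for Cldnd2, 45759673 for Sult2b1, 63938916 for Klf13 and 64374129 for Fan1. Fan1 followed Klf13 with 4 protein-coding genes between them. Ptpn5 lay 55 coding genes before Klf13, Sult2b1 89, Dhdh 110, Gys1 113, Slc6a16 124, Dkkl1 127, Rcn3 138 and Cldnd2 223, and Ddias lay 182 after it, of 2030 coding genes on the chromosome. The members from Rcn3 to Sult2b1 formed a group of their own, in which Dkkl1 and Slc6a16 were separated by 2 coding genes, as were Gys1 and Dhdh. Members that differed in direction thus stood close together, Dkkl1 lower beside Slc6a16 higher, and Gys1 lower beside Dhdh higher.

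Upstream sequence is shown for 2 genes that were higher in the knockout and 2 that were lower, so that the letters KLF factors are known to bind can be looked for in both directions of change. Each stretch is the RefSeq GRCm38.p6 sequence before the gene's start, 5′ to 3′ on the gene's own strand, and reaches at most 250 bases upstream. Bases inside the annotated gene are left out. Capitals mark a match to CACCC on either strand, which reads as GGGTG when it lies on the opposite one. They also mark the GC box GGGCGG, which on the opposite strand reads as CCGCCC.

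Slc6a16, chr7:45240503-45240752, plus strand: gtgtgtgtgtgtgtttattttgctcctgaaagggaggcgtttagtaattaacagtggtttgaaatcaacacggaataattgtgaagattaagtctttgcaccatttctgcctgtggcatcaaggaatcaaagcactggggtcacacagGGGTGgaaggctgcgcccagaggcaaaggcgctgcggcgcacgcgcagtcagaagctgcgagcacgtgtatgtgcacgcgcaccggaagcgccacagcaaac
Sult2b1, chr7:45759673-45759862, minus strand: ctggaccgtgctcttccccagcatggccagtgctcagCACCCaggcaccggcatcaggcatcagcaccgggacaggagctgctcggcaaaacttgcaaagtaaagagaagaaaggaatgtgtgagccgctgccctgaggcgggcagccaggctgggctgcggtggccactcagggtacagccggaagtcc
Cldnd2, chr7:43440566-43440739, plus strand: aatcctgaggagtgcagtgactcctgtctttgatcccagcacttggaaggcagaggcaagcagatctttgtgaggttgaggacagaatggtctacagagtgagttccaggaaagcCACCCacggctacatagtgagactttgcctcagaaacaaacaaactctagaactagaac
Fan1, chr7:64374129-64374306, minus strand: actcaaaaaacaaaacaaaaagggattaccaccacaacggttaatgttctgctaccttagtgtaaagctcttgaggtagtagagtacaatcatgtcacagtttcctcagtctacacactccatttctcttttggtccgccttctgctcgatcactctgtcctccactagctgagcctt

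The stretches before Slc6a16 and Sult2b1, which were higher, and before Cldnd2, which was lower, each held 1 CACCC match, and that before Fan1 held no match to either motif. The stretch before Gys1, which was lower and is not shown, held 2 GC boxes and 1 CACCC match. Over the whole windows of 300 bases, which also cover the first bases of the gene, 7 of the 11 start sites of the members had CACCC and 3 had a GC box. Those 3 were 1 start site each of Rcn3, Gys1 and Ptpn5, all lower in the knockout. Slc6a16 and Sult2b1, which were higher, had no GC box, and nothing is read from these few sites. Among 32851 mouse promoter windows of this length 57.5% had CACCC, 35.7% a GC box and 23.8% both. Matches to the GC box and to CACCC can overlap each other. A match describes letters, not a bound site. The promoter table listed 9 of the 10 genes, all but Dhdh.

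Klf13 itself was read first, as a check of the labels. Its log2 signal was 6.03 in WT1, 6.95 in WT2, 6.89 in WT3, 7.21 in WT4 and 7.54 in WT5. It was 5.41 in KO1, 6.16 in KO2, 6.07 in KO3, 6.21 in KO4 and 6.46 in KO5. Each knockout array lay under every wild-type array of its set, and the fitted difference was -0.86 ± 0.12 (SE, 5 arrays per genotype), 0.549 of wild type. All 3 of its exon-level probe sets were lower. The labels do not give the position of the deletion within the gene, so a remaining signal at these probes does not measure functional KLF13.

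**Figure D1:**
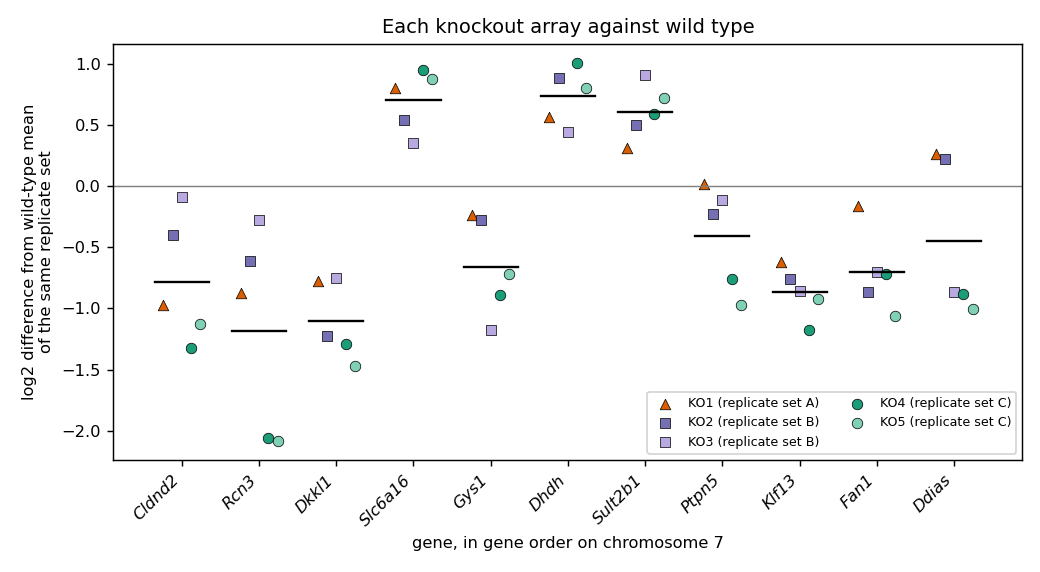
The log2 difference of each knockout array from the wild-type mean of its own replicate set is plotted for the 10 genes and Klf13, in gene order along chromosome 7; the bar is the fitted difference. All 5 arrays of Slc6a16, Dhdh and Sult2b1 lie above 0, all 5 of Cldnd2, Rcn3, Dkkl1, Gys1, Fan1 and Klf13 lie below it, and those of Ptpn5 and Ddias lie on both sides.

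Of the 10 genes, 7 had knockout arrays that did not overlap the wild-type arrays, in 1 direction, in all 3 sets. Over all tested genes this held for 12.4% (1550 of 12485). In the fit over all arrays 2 of the 10, Dkkl1 and Slc6a16, had a limma adjusted p under 0.05, against 0.585% of tested genes (73). In a fit of the gene-level table alone all 10 did, against 2.72% (339). In the exon-level table alone 0 of the 10 did, and no gene of the whole table did (limma, 1019 genes at an unadjusted p under 0.05). Since the genes had been chosen on these same values, and Slc6a16 passed the filter on dim genes only through its knockout signal, nothing is read from their shares.

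Slc6a16, an orphan member of the SLC6 family of sodium-coupled amino acid and neurotransmitter carriers, was at 3.82 in WT1, 4.92 in WT2, 4.99 in WT3, and 3.21 in both WT4 and WT5. In the knockout it was at 4.62 in KO1, 5.50 in KO2, 5.31 in KO3, 4.16 in KO4 and 4.09 in KO5. Every knockout array was above every wild-type array of its set, by the widest margins in sets A and C. The fitted difference was 0.71 ± 0.12 (log2, SE), a fold of 1.63. In wild type its signal was dim, at the 27.7th percentile of all genes in the exon-level table and the 22.2nd in the gene-level table.

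Dhdh encodes dihydrodiol dehydrogenase, an enzyme that oxidizes dihydrodiols of aromatic hydrocarbons. It was at 5.56 in WT1, 6.18 in WT2, 6.28 in WT3, 4.78 in WT4 and 5.38 in WT5. The knockout arrays were at 6.12 in KO1, 7.12 in KO2, 6.68 in KO3, 6.09 in KO4 and 5.89 in KO5. The genotypes did not overlap in any set, although WT4 and WT5 differed more from each other than WT5 did from KO5. The fitted difference was 0.74 ± 0.15, a fold of 1.67.

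Sult2b1 encodes a sulfotransferase that adds sulfate to cholesterol and related sterols. Its signal was 4.04 in WT1, 4.70 in WT2, 4.64 in WT3, 3.76 in WT4 and 3.67 in WT5, against 4.35 in KO1, 5.17 in KO2, 5.58 in KO3, 4.31 in KO4 and 4.44 in KO5. The knockout arrays were the higher ones in each set, and KO3 stood farthest above its wild-type mean. Over the 3 sets the fit gave 0.61 ± 0.12, a fold of 1.53, and 0.53 without KO3.

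Rcn3 had the lowest fitted difference of the 10 genes. It encodes reticulocalbin 3, a calcium-binding protein of the endoplasmic reticulum. Its log2 signal was 4.67 in WT1, 5.17 in WT2, 5.35 in WT3, 7.08 in WT4 and 6.83 in WT5. In the knockout it was 3.80 in KO1, 4.65 in KO2, 4.98 in KO3, 4.89 in KO4 and 4.87 in KO5. No set overlapped, but the sets differed in size, with differences of -0.87 in set A, -0.44 in set B and -2.07 in set C. The fitted difference was -1.18 ± 0.25, or 0.441 of wild type.

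Dkkl1 encodes a secreted protein related to the Dickkopf inhibitors of Wnt signalling, known best from the testis. It was at 5.33 in WT1, 6.60 in WT2, 6.76 in WT3, 5.03 in WT4 and 5.54 in WT5. The knockout arrays were at 4.55 in KO1, 5.46 in KO2, 5.93 in KO3, 3.99 in KO4 and 3.81 in KO5. All 5 knockout arrays lay below the wild-type arrays of their sets, with differences from the wild-type mean of the set between -1.47 and -0.75. Fitted over the sets, Dkkl1 differed by -1.10 ± 0.16, or 0.465 of wild type.

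Cldnd2, which encodes a membrane protein with a claudin domain, was at 4.30 in WT1, 5.20 in WT2, 5.50 in WT3, 4.98 in WT4 and 4.22 in WT5. It was at 3.34 in KO1, 4.95 in KO2, 5.26 in KO3, 3.28 in KO4 and 3.48 in KO5. In set B the genotypes overlapped, since KO3 was above WT2. For Cldnd2 the fit gave -0.78 ± 0.20, or 0.582 of wild type, with -0.24 in set B against -0.97 and -1.22 in sets A and C.

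Gys1, the glycogen synthase of muscle and most tissues other than liver, was the member at the highest percentile of wild-type signal, the 85.3rd in the exon-level table and the 84.9th in the gene-level table. Its signal was 7.55 in WT1, 8.12 in WT2, 8.20 in WT3, 7.61 in WT4 and 7.63 in WT5, against 7.31 in KO1, 7.89 in KO2, 6.99 in KO3, 6.73 in KO4 and 6.90 in KO5. Each set was without overlap, but KO1 and KO2 were closest to wild type, at -0.24 and -0.27 from the mean of their sets, and KO3 was farthest, at -1.18. The fit gave -0.66 ± 0.17, or 0.633 of wild type, and -0.51 without KO3.

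Fan1 encodes a nuclease that works with FANCD2 and FANCI in the repair of DNA interstrand crosslinks, and is the member closest to Klf13. It was at 4.51 in WT1, 6.03 in WT2, 6.23 in WT3, 5.17 in WT4 and 4.89 in WT5. In the knockout it was at 4.35 in KO1, 5.26 in KO2, 5.43 in KO3, 4.31 in KO4 and 3.97 in KO5. The genotypes were apart in every set, though KO1 differed from WT1 by only -0.16. The fitted difference was -0.70 ± 0.14, or 0.615 of wild type.

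The remaining pair, Ptpn5 and Ddias, were lower in the gene-level table and less clearly so elsewhere. Ptpn5 encodes STEP, a tyrosine phosphatase known from the brain that acts on MAP kinases. It was at 5.03 in WT1, 6.90 in WT2, 6.74 in WT3, 5.87 in WT4 and 6.06 in WT5, against 5.05 in KO1, 6.60 in KO2, 6.71 in KO3, 5.21 in KO4 and 4.99 in KO5. Only in set C were the arrays far apart, by -0.86, against 0.02 in set A and -0.17 in set B. Ptpn5 had a fitted difference of -0.41 ± 0.16, and 4 of 5 knockout arrays were under their wild-type mean.

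Ddias encodes a suppressor of apoptosis that is induced by DNA damage. It was at 6.34 in WT1, 7.64 in WT2, 7.79 in WT3, 6.51 in WT4 and 5.97 in WT5. In the knockout it was at 6.61 in KO1, 7.93 in KO2, 6.84 in KO3, 5.36 in KO4 and 5.24 in KO5. KO1 and KO2 were above the wild-type arrays of their sets and the other 3 below. The fitted difference was -0.45 ± 0.23, and -0.30 without KO3.

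A limma interaction term tested whether the genotype difference in the gene-level table departed from that in the exon-level table. No gene passed (0 of 12485, 0%, adjusted p under 0.05, 658 at an unadjusted p under 0.05). For Rcn3 the gene-level difference was lower than the exon-level one by -1.49 ± 0.26 (adjusted p = 0.784). Without KO3, 121 genes passed, Rcn3 and Ddias among them, with adjusted p of 0.00577 and 0.0256. Over the alternatives the adjusted p of both genes reached 1.00. Every member had passed in the gene-level table, so this comparison is not free of how the genes were chosen.

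The exon-level table measures each gene with several probe sets, which shows whether a gene's difference was shared along the transcript or came from a few probes. The number of probe sets ran from 5 for Cldnd2 and Dkkl1 to 18 for Fan1 and Ptpn5. Probe sets on the same side of 0 as the fitted difference numbered 9 of 9 for Sult2b1, 11 of 12 for Slc6a16, 14 of 16 for Gys1, 7 of 8 for Dhdh, 6 of 7 for Rcn3 and 4 of 5 for Dkkl1. They numbered 12 of 18 for Fan1, 4 of 6 for Ddias, 11 of 18 for Ptpn5 and 3 of 5 for Cldnd2. Among 10187 tested genes with 5 or more probe sets, the median gene had 75% on the side of its own mean. Among the 2600 of these with a mean of 0.4 or more in either direction the median was 90%. Sult2b1 and Slc6a16 were above 90%, and the other members were below it. Ptpn5 and Ddias, with means of -0.10 and -0.13, were not among the 2600.

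A stricter count asks for the same direction in KO1, KO2 and KO3 separately. By it 4 of 5 probe sets were lower for Dkkl1, 10 of 16 for Gys1, 8 of 18 for Fan1, 3 of 7 for Rcn3, 2 of 5 for Cldnd2, 5 of 18 for Ptpn5 and 1 of 6 for Ddias. By the same count 5 of 8 were higher for Dhdh, 5 of 9 for Sult2b1 and 6 of 12 for Slc6a16. The median over the 2600 genes was 50%. Dkkl1, Gys1, Dhdh and Sult2b1 were above that median, and Slc6a16 was at it. Rcn3, Fan1, Cldnd2, Ptpn5 and Ddias were below it. No exon-level probe set passed on its own in the whole table (limma, 0 of 148468, 0%, 6641 at an unadjusted p under 0.05). Without KO3, 101 probe sets passed, 98 of them higher in the knockout.

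**Figure D2:**
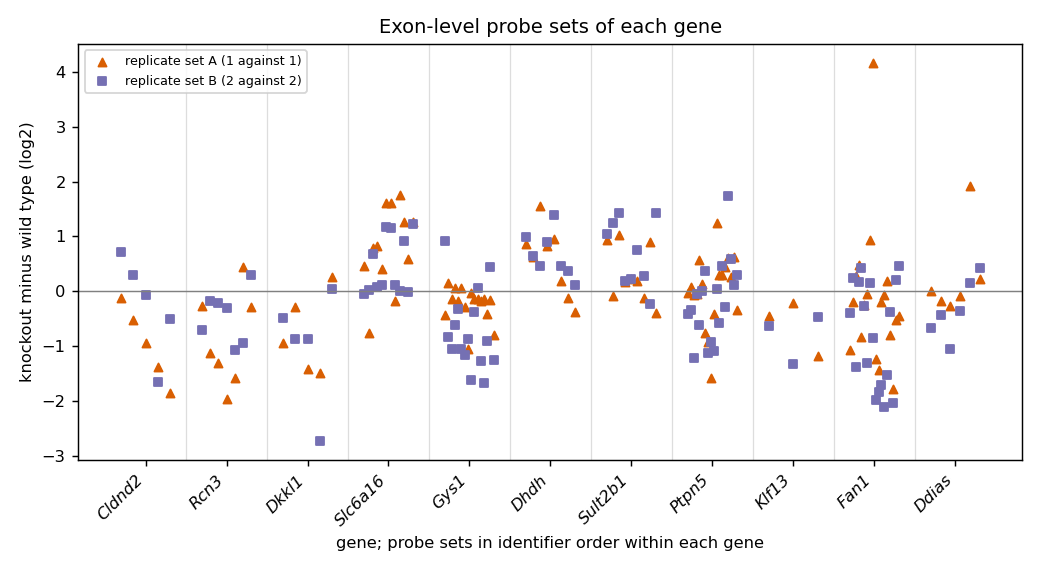
The knockout minus wild-type log2 difference of each exon-level probe set is plotted for each gene in identifier order, separately for replicate set A (1 array per genotype) and set B (2 per genotype). Most points of Slc6a16, Dhdh and Sult2b1 lie above 0 and most of Rcn3, Dkkl1 and Gys1 below it, while those of Ptpn5 lie on both sides.

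Single probe sets carried a large part of the difference in some genes. In Dkkl1 the probe set 10563174 was at 4.88, 6.33 and 6.49 in WT1, WT2 and WT3 and at 3.39, 3.96 and 3.41 in KO1, KO2 and KO3. Its difference was -2.32, and the mean over the gene went from -0.92 to -0.57 without it. The other 3 lower probe sets of Dkkl1 were between -1.06 and -0.64, and the last, 10563175, was at 0.11.

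In Cldnd2 the probe set 10552416 was at 3.34, 5.07 and 5.62 in WT1 to WT3 and at 1.96, 3.74 and 3.65 in KO1 to KO3. The mean of Cldnd2 over its probe sets was -0.49 with it and -0.22 without it. Leaving out the farthest probe set changed the other means less in size. They went from 0.57 to 0.50 for Slc6a16, from 0.58 to 0.49 for Sult2b1, from 0.63 to 0.73 for Dhdh, from -0.59 to -0.48 for Rcn3, from -0.56 to -0.63 for Gys1 and from -0.58 to -0.50 for Fan1. For Ptpn5 and Ddias, whose farthest probe sets were higher in the knockout, they went from -0.10 to -0.19 and from -0.13 to -0.30. No mean changed its sign.

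Fan1 was uneven along its probe sets. A run of 4 consecutive ones (10564304 to 10564307) was lower in all 3 knockout arrays, with a mean of -1.52, against -0.31 over the other 14. The first of the run was at 3.88, 5.95 and 6.21 in WT1 to WT3 and at 2.65, 4.35 and 3.82 in KO1 to KO3. The mean of the run was -0.74 in set A and -1.91 in set B, and that of the other 14 was 0.01 and -0.46. The lowest Fan1 probe set, 10564310, lay outside the run, at -1.95. The run was picked after its values were seen, and the place of these probe sets in the Fan1 transcript is not known here. Whether sequence variants lie under any of these probes was not tested.

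**Figure D3:**
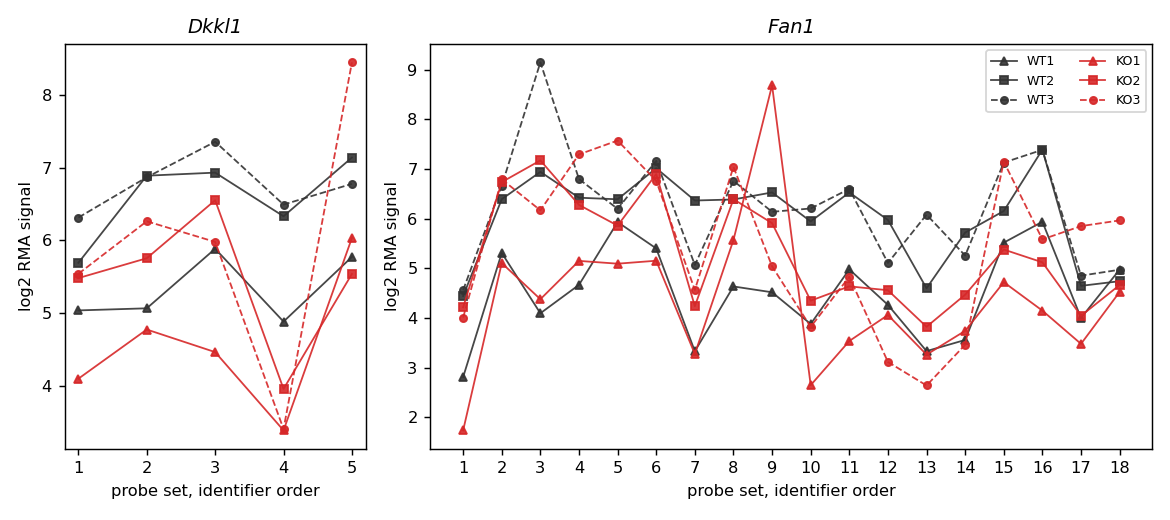
Log2 signal of every exon-level probe set of Dkkl1 (5) and Fan1 (18) in identifier order is plotted for each of the 6 exon-level arrays; black is wild type, red is knockout and the symbol is the replicate number. In Dkkl1 the fourth probe set is at 3.39 to 3.96 in the knockout against 4.88 to 6.49 in wild type, and in Fan1 the separation is widest in set B at probe sets 10 to 14 and 16.

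Genes around the members were compared next. Of 80 tested genes that stood within 5 tested genes of a member, 39 were lower and 41 higher in the knockout, with a median of 0.01, and 4 passed (limma, adjusted p under 0.05), all lower. Over all 12485 tested genes the median was -0.10, and 73 passed (0.585%), 61 lower and 12 higher. Around Klf13 itself the 20 nearest tested genes other than Fan1, 10 on each side, had differences from -0.69 to 0.24. Their median was 0.03, and none passed. The 5 nearest on each side had differences from -0.30 to 0.24. They included Chrna7 at 0.15 ± 0.16 and Mtmr10, which stands between Klf13 and Fan1, at 0.16 ± 0.21. Mphosph10, on the other side of Fan1, was at 0.24 ± 0.19 (log2, SE). In sets A, B and C, Mtmr10 was at 0.85, -0.33 and 0.31, and Mphosph10 at 0.53, -0.13 and 0.46.

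The closest tested genes beside most members did not pass. Beside Rcn3 these were Nosip at -0.17 ± 0.11 and Snord35b at 0.18 ± 0.14. Kash5 and Tead2 beside Dkkl1 were at 0.05 ± 0.12 and 0.24 ± 0.11. Cd37, a tetraspanin of lymphocytes, and the cation channel gene Trpm4 beside Slc6a16 were at -0.24 ± 0.11 and -0.33 ± 0.12.

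Gys1 and Dhdh share their neighbours. Ruvbl2, an ATPase of chromatin remodelling complexes that overlaps the promoter window of Gys1, was at -0.30 ± 0.12, and Tulp2 at 0.00 ± 0.15. Spaca4 and Lmtk3 beside Sult2b1 were at 0.19 ± 0.15 and 0.29 ± 0.18. Tmem86a and Zdhhc13 beside Ptpn5 were at 0.14 ± 0.13 and 0.03 ± 0.22. Beside Ddias, 4632427E13Rik was at -0.29 ± 0.21 and Prcp at -0.20 ± 0.18. In sets A, B and C, 4632427E13Rik was at 0.02, -0.74 and 0.01, and Prcp at 0.00, -0.61 and 0.10.

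Cldnd2 was the exception, as both its neighbours passed. Nkg7, which encodes a protein of cytotoxic granules, fell by 2.20 ± 0.14 (limma adjusted p = 5.94e-05) and was lower in each set, by -2.20, -1.88 and -2.51. It passed under 21 of 22 alternatives, all but the exon-level table alone (highest adjusted p 0.135). Etfb, a subunit of the mitochondrial electron transfer flavoprotein, fell by 0.72 ± 0.13 (limma adjusted p = 0.0371). It passed under 9 of 22 alternatives, with adjusted p from 0.00342 to 1.00, and lost the call without any one of WT1 to WT5, KO1, KO4 or KO5.

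**Figure D4:**
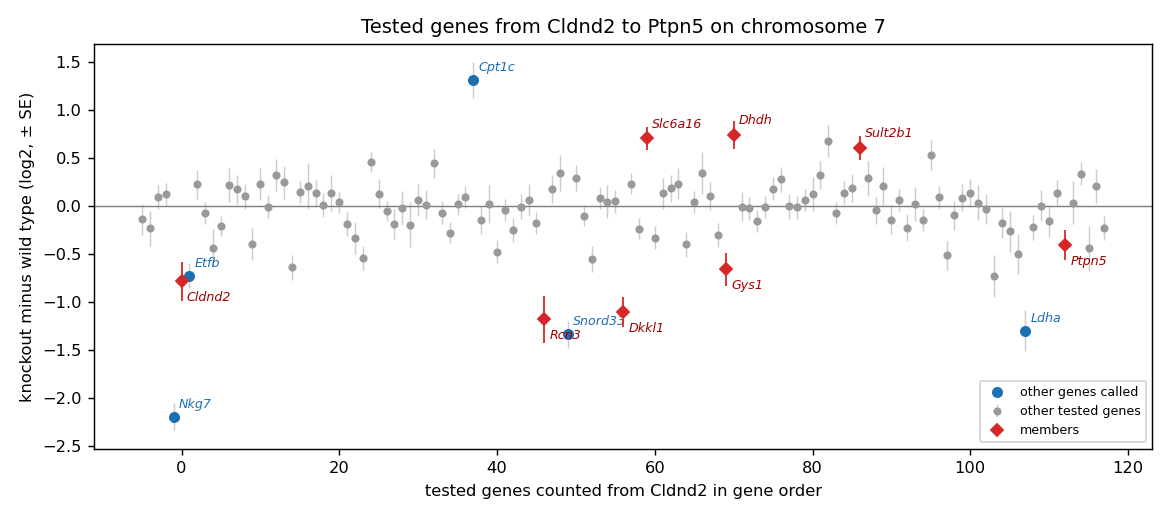
The fitted knockout minus wild-type difference (log2, ± SE) is plotted for each tested gene from just before Cldnd2 to just after Ptpn5, in gene order, with the 8 members there as red diamonds and other genes that passed in blue. Grey genes between the members lie on both sides of 0, from -0.73 (Tph1) to 0.68 (Dbp), named from their values. That range reaches past the differences of Ptpn5, Gys1 and Sult2b1. Of the members, Cldnd2, Rcn3 and Dkkl1 are lower in a row, then Slc6a16 higher, Gys1 lower, Dhdh and Sult2b1 higher, and Ptpn5 lower.

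Between Cldnd2 and Ptpn5 there were 105 tested genes that were not members, and their median difference was 0.02. Of these 4 passed (3.81%), named here after their values were seen. They were Etfb, Cpt1c, a carnitine palmitoyltransferase relative, higher by 1.31 ± 0.19, the small nucleolar RNA gene Snord33 at -1.34 ± 0.14 and the lactate dehydrogenase subunit gene Ldha at -1.30 ± 0.22. Ldha lost the call in 13 of 22 alternatives, among them each omission of 1 array other than KO2 or KO3, and Cpt1c in 7, among them the omission of WT1, WT2, WT3, WT4 or KO1. Snord33 lost it in 2, the table as block and the exon-level table alone. Between Ptpn5 and Klf13 1 of 17 passed, the vesicular glutamate transporter gene Slc17a6 at -1.46 ± 0.11. Between Fan1 and Ddias 1 of 101 passed (0.990%), Hdgfl3 at 0.60 ± 0.12, and its call was lost in 13 of 22, among them each omission of 1 array other than KO3. Before Cldnd2 1 of 355 passed (0.282%), which was Nkg7, and after Ddias 2 of 436 (0.459%). These shares stand beside 0.585% for all tested genes. Most interval ends are members, which were picked for their change in these data and are not counted. Nothing is therefore read from the shares.

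Genes that work with the members, or are related to them by sequence, were read from lists. For Gys1, 17 genes of glycogen metabolism were tested, and 0 passed. Their median was -0.23, with 12 lower and 5 higher, while 7933 of the 12485 tested genes were lower and 4552 higher. By set the median was 0.00 in A, -0.52 in B and 0.00 in C. The genes of the lists named here were picked from their values or for their link to a member. They ran from Pgm1, a phosphoglucomutase, at -0.55 ± 0.13 to Nhlrc1 at 0.17 ± 0.18, and the branching enzyme gene Gbe1 was at -0.42 ± 0.22. For Fan1, 29 genes of interstrand crosslink repair were tested, with a median of -0.21, 26 lower and 3 higher, and 0 passed. By set the median was -0.11 in A, -0.16 in B and -0.14 in C. Fancd2 and Fanci, whose products recruit FAN1, were at -0.53 ± 0.21 and -0.32 ± 0.22.

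For Slc6a16, 6 other SLC6 transporter genes were tested, with a median of 0.04, and for Rcn3 the 4 related calcium-binding protein genes had a median of -0.23, which was 0.01 in set A, -0.56 in set B and -0.01 in set C. For Ptpn5, 4 related phosphatases and substrates had a median of -0.14 (-0.08, -0.31 and 0.09 in sets A, B and C), and for Dkkl1, Dkk2 and Dkk3 were at 0.18 ± 0.16 and 0.08 ± 0.15. For Sult2b1, 13 of 14 listed genes were in both tables and the filter left 1, Papss1, at 0.06 ± 0.12. None of these passed. In the fit over all arrays, limma gave 0 calls in every one of these lists. Among all 12485 tested genes it gave 73 calls (0.585%), and 1866 genes had an unadjusted p under 0.05. Lists of at most 29 tested genes are too small to set 0 calls apart from that share.

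T cell genes were bright in wild type, with all 6 tested of 7 listed (Cd3d, Cd3e, Cd3g, Cd2, Cd5 and Cd28) at or above the 97.3rd percentile in both tables. All 6 had fitted differences below 0, with a median of -0.37, and 0 passed. Their mean level was 9.87 in WT1 and 9.52 in KO1, 10.98 to 11.02 in WT and 10.07 to 10.12 in KO of set B, and 10.11 to 10.32 in WT and 10.20 to 10.27 in KO of set C. The median difference of the T cell genes was -0.31 in set A, -0.72 in set B and 0.03 in set C. In set B the brightest signals were lower in the knockout as well, with a 99th percentile of 11.4 for KO2 and 11.6 for KO3 but 12.2 for WT2 and 12.3 for WT3. The part of this in the member differences was not tested.

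Markers of other cell types were at lower percentiles of wild-type signal than the T cell genes, and 10 of them passed the filter. The highest were Pecam1, an endothelial gene, at the 61.9th (exon-level) and 70.7th (gene-level), the macrophage gene Cd68 at the 61.2nd and 65.8th, and the B cell gene Cd79b at the 62.3rd and 60.5th, named here from their values. Of 4 NK cell markers 0 passed the filter, and their mean level was 3.15 and 3.07 in WT1 and KO1, 4.11 to 4.22 in WT and 4.05 to 4.66 in KO of set B, and 2.61 to 2.66 in WT and 2.53 to 2.70 in KO of set C. Of the listed markers, 5 of 6 B cell, 6 of 6 myeloid, 3 of 5 erythroid and 5 of 5 stromal and endothelial ones were in both tables. Of those in both tables the filter left 2 B cell, 2 myeloid, 3 erythroid and 3 stromal and endothelial markers. None of these passed in limma. In set C the mean level of the B cell markers was 3.68 in WT and 3.83 to 3.84 in KO, and that of the myeloid markers 4.11 to 4.17 and 4.19 to 4.25. The erythroid markers were at 4.56 to 4.73 in WT and 4.75 to 4.89 in KO there, and the stromal and endothelial markers at 4.66 to 4.73 and 4.80 to 4.85. These 4 lists were thus higher in the knockout arrays of set C, without overlap, with 2 arrays per genotype. How often this held over all genes in set C was not counted. The mean levels cover every listed marker in both tables, also dim ones that the filter left out. Over the tested markers alone the median difference in set C was 0.02 for B cell and 0.10 for myeloid markers. It was 0.22 for erythroid and 0.25 for stromal and endothelial markers. In set B the B cell markers were at 5.51 to 5.53 in WT and 5.59 to 5.68 in KO, the myeloid markers at 5.05 to 5.12 and 5.43 to 5.44, and the stromal and endothelial markers at 5.89 to 6.01 and 6.08 to 6.13. The erythroid markers overlapped in set B, at 5.70 to 5.75 and 5.73 to 6.06. In set A these lists were at 4.17, 3.99, 4.83 and 4.95 in WT1 and at 4.27, 4.00, 4.74 and 4.94 in KO1, in the order B cell, myeloid, erythroid, stromal and endothelial. The part of these levels in the member differences was not tested.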

How the data were processed

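RNA of 10 samples was measured on Affymetrix arrays after amplification from an oligo(dT) primer, per the labels' protocols. The authors deposited log2 values made with RMA, as the submitters' processing notes name it. Its version and a genome build were not given in the sources used here. Both tables, exon-level with 241576 probe sets (3 arrays per genotype) and gene-level with 35556 (2 per genotype), had been normalized separately.

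Gene names came from the platform annotation, with old symbols updated through RefSeq (2731 and 19). Those of 1 gene were kept (212097 and 21789), leaving out 4475 and 1621 with several genes and 25004 and 12146 with none. A gene's value was the mean of its exon-level probe sets, and its brightest gene-level probe set. Genes whose mean over all arrays of a table was at or above its 30th percentile, in both tables, were tested in R 4.3.3 with limma 3.58.1 (lmFit, eBayes, Benjamini-Hochberg, 2-sided), with 3 replicate sets as a fixed block. An array with a median over 0.5 under the highest of its table formed another set. The fit was tested on simulated data. The members, lists and replicate sets were chosen with earlier results of these data known.

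The named genes are Klf13, the 10 genes, the nearest tested gene on either side of each, those of the 5 tested genes on either side of Klf13 that passed, and up to 3 passing genes per list, with others said to be picked from their values. Alternatives were the table or replicate number as block, quantile normalization, array medians subtracted, other probe-set summaries and filters, eBayes with trend and robust, and each array left out. Added after the data were seen were each table alone, the farthest probe set left out, and KO3 left out with quantile normalization. Arrays carry no count depth, and their number limits the precision.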

Additional observations from a re-analysis of the deposited data

How the results depend on the processing

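The number of genes that passed between genotypes (73 in limma) depended on the settings. It was 4 with the table as block, 31 with the median of exon-level probe sets, 339 in the gene-level table alone and 0 in the exon-level table alone, and 12 (without KO4) to 362 (without KO3) when 1 array was left out. With the replicate block it was 23, and of the members Dkkl1 passed. Same-numbered arrays had correlations of -0.42 in set B and -0.24 in set C. With 2 arrays per genotype the other numbers give the same value with opposite sign, so each set holds 1 value. In the exon-level table WT1 correlated best with KO1 (0.39) and WT2 with KO2 (0.32), but WT3 with KO2 (0.62). Whether the replicate numbers pair the samples cannot be decided from so few arrays. The interaction gave 0 to 121 genes and the probe-set fit 0 to 101 when 1 array was left out, with the highest numbers without KO3.

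Dkkl1 lost its call without WT3, WT4, KO4 or KO5, and Slc6a16 without any of WT1 to WT5, KO1, KO4 or KO5. Under the 50th percentile filter 0 members passed, and without KO3 8 did, all but Ptpn5 and Ddias. No fitted member difference changed sign in the alternatives run. Of 198 values for the members and Klf13, 197 moved by less than the spread between replicates. The exception was Slc6a16 (0.95 with the median of probe sets). The 198 include settings that left each value where it was: the table as block, the replicate block and the mean of gene-level probe sets. Leaving out WT1 and leaving out KO1 also gave the same difference. The count is therefore not a measure of stability. The median of the genes around the members was -0.012 with 10 genes on either side of each, against 0.013. The cause of these changes was not tested. Quantile normalization moved the median of all genes from -0.10 to -0.02. The dim signals of Slc6a16 and Sult2b1, 5 arrays per genotype and 1 array per genotype in set A limit the precision.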
